A study of Mus musculus with 6 samples.

Results

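The genes described here make, sense and move cholesterol. The set holds 30 genes, taken by symbol out of 41449 rows of the expression table, and each symbol matched 1 row. It has 10 enzymes of the early pathway, from acetyl-CoA to lanosterol, and 8 enzymes of the late pathway, from lanosterol to cholesterol. A further 6 genes are regulators and 6 transport, esterify or export cholesterol. RNA sequencing was done on whole lenses of mice aged 2 months, with 2 lenses in each library. The FNcKO group is 3 libraries from fibronectin conditional knockout mice of a mixed C57BL/6, 129 and FVB/N background, and the WT group is 3 libraries from wild-type C57BL/6 mice. The study asks what fibronectin, a matrix glycoprotein bound by integrins, does in the lens after birth. The labels call the libraries of a genotype biological replicates, and they do not name the Cre driver or the floxed allele. Strain background divides the libraries exactly as genotype does, so the effects of the knockout and of the background cannot be told apart in any value below.

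Cells build cholesterol from acetyl-CoA through mevalonate, farnesyl diphosphate, squalene and lanosterol, and the late enzymes then remove methyl groups and move or reduce double bonds. When membrane sterol is low, SCAP carries the SREBP transcription factors to the Golgi for activation and the enzyme genes are switched on. When sterol is high, the INSIG proteins hold SCAP back and the LXR receptors turn on exporters. Lens fibre cells have some of the most cholesterol-rich membranes known, and in humans inherited defects of several enzymes of this pathway, LSS and DHCR7 among them, can include cataract.

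Levels are given as FPKM, the deposited unit, in which fragments are divided by transcript length and by library depth. Changes are log2 differences of FPKM + 1, FNcKO minus WT, tested with limma over the 10149 genes that averaged 1 FPKM or more. A gene passed at an adjusted p under 0.05, and 192 genes did (1.89%), 87 of them higher in FNcKO (0.857%) and 105 lower. FNcKO and WT values did not overlap in 2600 of the tested genes (25.6%). Depth, estimated from the steps between low values, was 20200000 to 21800000 fragments in FNcKO libraries and 26800000 to 32300000 in WT libraries. Fn1, the targeted gene (chr1:71585473-71653234, GRCm38), was at 0.128, 0.0482 and 0.0942 FPKM in FNcKO and at 0.135, 0.188 and 0.253 FPKM in WT. It lay lower in every FNcKO library and was far below the minimum for testing in both groups, and by exact permutation (two-sided) p was 0.1, which no test of 3 against 3 can go below. Lens fibre markers summed to 172559 to 184922 FPKM in FNcKO and 171861 to 180115 FPKM in WT, with 11 of 16 above 0 in log2 change (median 0.15). Lens epithelium markers summed to 1648 to 1865 FPKM in FNcKO and 1500 to 1560 FPKM in WT, with no overlap. Of 13 tested, 3 passed as higher, beside 0.857% of all genes tested. The largest part of these sums was Cd24a, at 952 to 1066 FPKM in FNcKO and 828 to 848 FPKM in WT. The 3 that passed were Aqp1, Epha2 and Slc7a5, with log2 changes of 1.39, 0.47 and 0.52. Over the whole epithelium list, 7 of 13 were above 0 in log2 change (median 0.02). Pigment cell markers summed to 7.37 to 9.07 FPKM in FNcKO and 12.5 to 20.7 FPKM in WT, again with no overlap. The largest part was Ttr, at 3.14 to 4.54 FPKM in FNcKO and 6.53 to 12.1 FPKM in WT. Only 2 of the 11 pigment cell markers were tested, and 5 were under 1 FPKM in every library. Tyrp1, too low to test, went the other way, with means of 0.712 FPKM in FNcKO and 0.533 FPKM in WT. Markers listed for photoreceptors summed to 65.5 to 66.5 FPKM in FNcKO and 53.9 to 119.6 FPKM in WT. The largest part was Gnb1, at 16.3 to 18.2 FPKM in FNcKO and 20.3 to 25.8 FPKM in WT. Of the 15 photoreceptor markers tested, 1 was above 0 in log2 change (median -0.41). Gnat1 passed as lower (limma adjusted p = 0.0215), at 8.84, 9.64 and 9.77 FPKM in FNcKO and 18.9 and 22.2 FPKM in WT. It is not in the sums, because WT replicate 2, which had the lowest sum (53.9 FPKM), has no value for it. The part of these marker differences in the results was not tested. WT replicate 2 has no value for 8.63% of rows, among them Nsdhl, Ebp and Scap, which therefore have 2 WT values. In whole lenses, fewer cells of a type and less RNA per cell cannot be told apart.

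Of the 30 genes, 27 reached the minimum, and 1 of these passed the test. That gene was Dhcr7, the enzyme of the last step, which was 1.39-fold higher in FNcKO lenses. No gene of the set passed as lower. The share of 1 in 27 has to be read beside the 0.857% of all genes that were called higher. Unadjusted p was under 0.05 in 5 of the 27, near the share over all genes (1839 of 10149, 18.1%), and the median log2 change was -0.02, beside -0.04 over all genes tested. The log2 changes ran between -0.38 and 0.58, with 9 above 0 and 18 below. Values of the groups did not overlap in 8 of 27 genes (29.6%), beside the 25.6% of all tested genes. In 23 of the 27 the 95% interval of the change in FPKM + 1 lay within 1.5-fold either way, as it did in 7842 of the 10149 genes. For genes of low level, such an interval can hold larger folds of FPKM itself. Hsd17b7 and Stard4 reached the minimum only through the WT mean, and Tm7sf2, Abca1 and Abcg1 stayed below it.

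Levels differed far more between genes than between genotypes, as the plot of every library's values shows. Apoe was the highest of the set in all 6 libraries, at 105 FPKM or more. Insig1, Fdps, Hmgcs1, Srebf1 and Fdft1 followed at 7.58 to 17.6 FPKM. Abcg1 was the lowest, at 0.14 to 0.23 FPKM in FNcKO and 0.037 to 0.29 FPKM in WT.

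**Figure D1:**
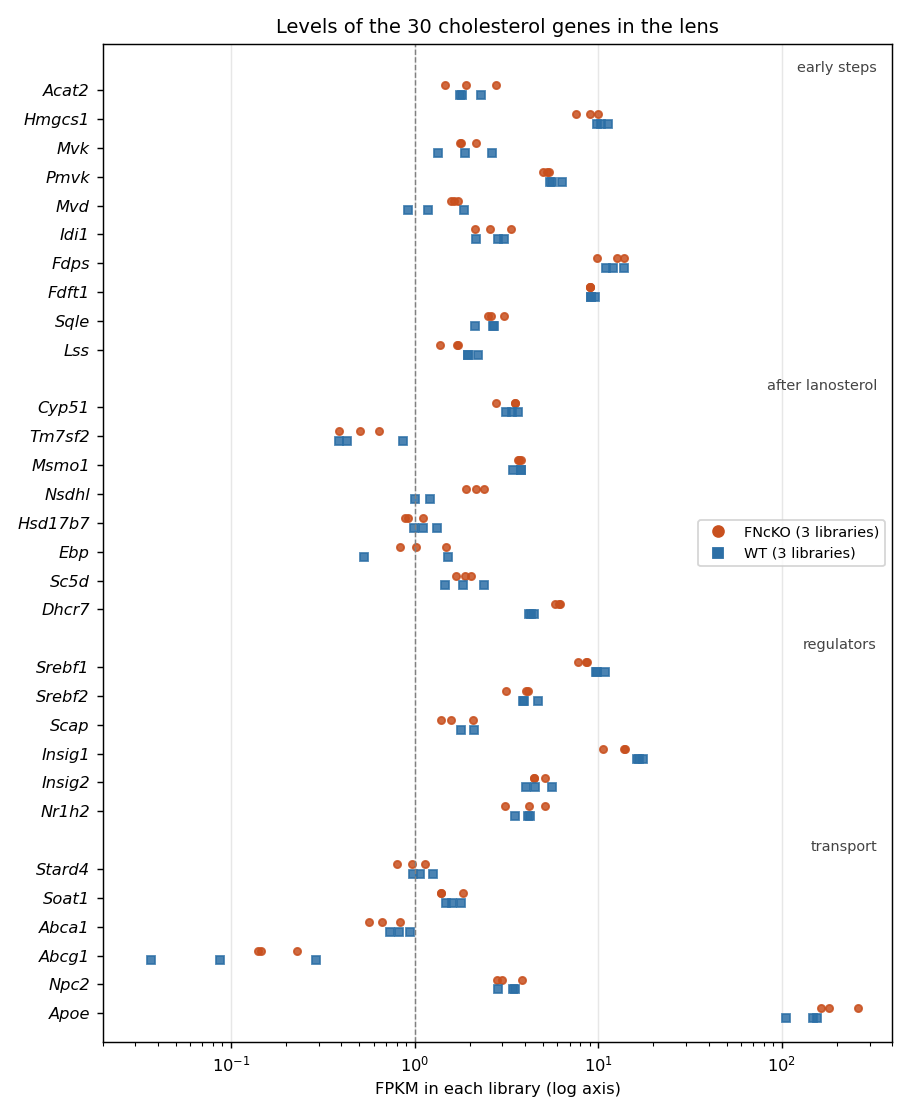
FPKM of the 30 genes in each library, on a log axis, with FNcKO libraries as circles and WT libraries as squares; the dashed line is the minimum mean for testing, 1 FPKM, and Nsdhl, Ebp and Scap have 2 WT values. Dhcr7, Nsdhl and Apoe have all FNcKO circles to the right of all WT squares, while Insig1, Srebf1, Lss, Pmvk and Fdft1 have them to the left.

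The stretches upstream of 4 genes are shown. Dhcr7 passed the test, and Nsdhl and Insig1 had the highest and the lowest log2 change of the set as deposited. Hmgcs1 has the only sterol regulatory element match among the 25 genes with a window. No relation between the sequences and the changes was tested. Each stretch is the 250 bases before a transcription start, plus strand, from RefSeq on GRCm38.p6. Dhcr7 has 2 starts, with windows chr7:143822917-143823166 and, 7047 bases downstream, chr7:143829964-143830213. The other windows are chrX:72918271-72918520 for Nsdhl, chr13:119690101-119690350 for Hmgcs1 and chr5:28071162-28071411 for Insig1. Capitals mark TCACNCCAC (a sterol regulatory element), CCAAT (the NF-Y box) and GGGCGG (the GC box), searched on both strands, so that ATTGG and CCGCCC are the reverse forms; in these windows no match overlaps another.
Dhcr7, upstream start: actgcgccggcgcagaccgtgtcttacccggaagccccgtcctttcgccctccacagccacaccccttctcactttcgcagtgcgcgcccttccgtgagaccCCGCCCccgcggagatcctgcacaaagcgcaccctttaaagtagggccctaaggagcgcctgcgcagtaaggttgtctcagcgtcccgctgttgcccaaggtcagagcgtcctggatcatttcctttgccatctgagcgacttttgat
Dhcr7, downstream start: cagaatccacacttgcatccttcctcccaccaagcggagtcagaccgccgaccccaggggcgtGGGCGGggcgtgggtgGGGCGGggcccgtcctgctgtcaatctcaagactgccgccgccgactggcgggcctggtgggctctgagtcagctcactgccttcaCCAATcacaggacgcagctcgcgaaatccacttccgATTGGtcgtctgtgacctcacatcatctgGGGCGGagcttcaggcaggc
Nsdhl: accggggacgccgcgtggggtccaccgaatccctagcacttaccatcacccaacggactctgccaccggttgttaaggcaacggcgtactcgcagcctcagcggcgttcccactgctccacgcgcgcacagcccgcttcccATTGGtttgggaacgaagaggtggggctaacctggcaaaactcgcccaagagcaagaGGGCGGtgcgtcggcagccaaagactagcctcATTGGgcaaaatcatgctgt
Hmgcs1: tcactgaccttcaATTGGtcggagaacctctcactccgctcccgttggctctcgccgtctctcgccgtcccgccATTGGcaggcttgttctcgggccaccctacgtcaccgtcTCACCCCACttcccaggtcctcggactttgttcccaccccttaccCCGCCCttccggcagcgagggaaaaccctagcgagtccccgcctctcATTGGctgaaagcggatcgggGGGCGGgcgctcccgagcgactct
Insig1: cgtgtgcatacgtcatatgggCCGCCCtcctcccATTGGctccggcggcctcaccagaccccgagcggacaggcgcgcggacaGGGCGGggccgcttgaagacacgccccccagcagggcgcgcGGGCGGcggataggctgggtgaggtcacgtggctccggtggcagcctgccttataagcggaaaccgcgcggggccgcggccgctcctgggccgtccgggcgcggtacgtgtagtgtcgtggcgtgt
The upstream Dhcr7 window holds 1 GC box and no NF-Y box, and the downstream one holds 3 GC boxes and 2 NF-Y boxes. The Hmgcs1 window has the element 137 bases before the start, with 3 NF-Y boxes and 2 GC boxes. RefSeq windows reaching 50 bases past the start were found for 25 of the 30 genes. The sterol regulatory element letters were in 1 of these 25 (4%), beside 1.44% of 27025 genes with a window. NF-Y boxes were in 20 of 25 genes (80%), beside 41.1% of all and 43.2% of tested genes. GC boxes were in 22 of 25 (88%), beside 38.2% of all and 71.3% of tested genes. A match is only a run of letters, and its absence from a window says nothing about a factor.

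Dhcr7 reduces dehydrocholesterol to cholesterol (chr7:143823167-143848410). It was at 5.81, 6.14 and 6.17 FPKM in the FNcKO libraries and at 4.20, 4.49 and 4.33 FPKM in the WT libraries. Each FNcKO value was above each WT value, and the libraries of each genotype lay close together. The means were 6.04 ± 0.198 FPKM in FNcKO and 4.34 ± 0.145 FPKM in WT (SD, n = 3 each), a log2 change of 0.40 (SE 0.0569, 95% interval 0.26 to 0.54, limma adjusted p = 0.0344). At the estimated depths and the length of its longest transcript these levels correspond to about 331, 345 and 326 fragments in FNcKO and 355, 341 and 303 in WT. The change was above 0 under all 17 alternative settings, at 0.38 to 0.76. The call was lost without FNcKO replicate 1 (adjusted p = 0.0767), 2 (0.108) or 3 (0.12), and without WT replicate 1 (0.157), 2 (0.138) or 3 (0.159). It was also lost with no minimum (0.0768), a minimum of 5 FPKM (0.0516), equal FPKM totals (0.0941, or 0.094 without crystallins) and a replicate block (0.182).

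Nsdhl, the dehydrogenase that helps to take off the methyl groups of lanosterol, lies on the X chromosome (chrX:72918521-72958528). It had the highest log2 change of the set in the values as deposited and did not pass; Apoe ranked above it after quantile normalization (0.65 for Apoe, 0.63 for Nsdhl) and with equal totals (0.80 for Apoe, 0.73 for Nsdhl), among other settings. It was at 1.90, 2.16 and 2.39 FPKM in FNcKO and at 1.01 and 1.21 FPKM in the 2 WT libraries with a value. The FNcKO values all lay above both WT values, with means of 2.15 ± 0.245 FPKM (SD, n = 3) in FNcKO and 1.11 ± 0.144 FPKM (SD, n = 2) in WT, a ratio of 1.94. The log2 change was 0.58 (SE 0.109, limma adjusted p = 0.0852), and the fit used 5 libraries. Its adjusted p stayed between 0.0674 and 0.278 over 16 alternative settings. Msmo1, the oxidase that starts the removal of the same methyl groups, was at 3.78, 3.65 and 3.70 FPKM in FNcKO and at 3.80, 3.43 and 3.79 FPKM in WT. Its groups overlapped, with a log2 change of 0.01 (SE 0.0605, limma adjusted p = 0.941). Within a library, Nsdhl over Msmo1 was 0.504, 0.591 and 0.646 in FNcKO and 0.265 and 0.32 in WT, again with no overlap.

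The other late enzymes gave overlapping groups. Cyp51, the lanosterol demethylase, was at 2.78 to 3.55 FPKM in FNcKO and 3.15 to 3.68 FPKM in WT. Sc5d, the sterol desaturase just before Dhcr7, was at 1.68 to 2.02 FPKM in FNcKO and 1.47 to 2.39 FPKM in WT. Hsd17b7, a keto reductase of the same demethylation cycle, was at 0.883 to 1.11 FPKM in FNcKO and 0.988 to 1.32 FPKM in WT. Ebp, the sterol isomerase, is X-linked like Nsdhl and was read in the same 5 libraries. It ranged from 0.831 to 1.48 FPKM in FNcKO and was at 1.52 and 0.528 FPKM in WT, and its 95% interval, -0.59 to 0.77 on the log2 scale, was the widest of the late enzymes. Tm7sf2, a sterol reductase, was too low to test, at 0.386 to 0.644 FPKM in FNcKO and 0.386 to 0.870 FPKM in WT. Of the 7 late enzymes tested, 1 passed, and their median log2 change was 0.01.

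No early enzyme passed the test. All 10 were above the minimum, their median log2 change was -0.02, and each 95% interval lay within 1.5-fold either way in FPKM + 1. For the low ones, such as Mvd, that interval holds larger folds of FPKM itself. In 3 of them, Pmvk, Fdft1 and Lss, every FNcKO value was below every WT value, as in 16.3% of all genes tested. Lss, which closes squalene epoxide into lanosterol, was at 1.73, 1.70 and 1.38 FPKM in FNcKO and at 2.22, 1.95 and 1.96 FPKM in WT. It was the early enzyme with the smallest p, with a log2 change of -0.23 (SE 0.0877, unadjusted p = 0.0418, limma adjusted p = 0.257). Pmvk, the phosphomevalonate kinase, was at 4.997, 5.39 and 5.29 FPKM in FNcKO and at 6.37, 5.43 and 5.62 FPKM in WT. The groups were nearly touching, at 5.39 in FNcKO and 5.43 in WT, and the log2 change was -0.13 (SE 0.0736, limma adjusted p = 0.435). Fdft1, the squalene synthase, was at 9.03, 9.06 and 9.02 FPKM in FNcKO and at 9.09, 9.62 and 9.11 FPKM in WT. Its separation is one of hundredths of an FPKM, with a log2 change of -0.03 (SE 0.0538, limma adjusted p = 0.795).

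Fdps and Hmgcs1 were the most abundant early enzymes. Hmgcs1, which makes HMG-CoA at the entrance to the pathway, was at 9.08, 9.92 and 7.58 FPKM in FNcKO and at 11.3, 9.84 and 10.4 FPKM in WT. FNcKO replicate 2 overlapped WT replicate 2, and the log2 change was -0.23 (SE 0.107, limma adjusted p = 0.328). Fdps, the farnesyl diphosphate synthase, was at 13.8, 9.79 and 12.6 FPKM in FNcKO and at 12.0, 10.97 and 13.7 FPKM in WT, with a log2 change of -0.03 (SE 0.141, limma adjusted p = 0.947). Its groups overlapped widely. Idi1, the isopentenyl diphosphate isomerase, was at 2.13 to 3.34 FPKM in FNcKO and 2.16 to 3.07 FPKM in WT. Sqle, the squalene epoxidase, was at 2.51 to 3.05 FPKM in FNcKO and 2.12 to 2.70 FPKM in WT. Mvk, the mevalonate kinase, was at 1.77 to 2.15 FPKM in FNcKO and 1.34 to 2.62 FPKM in WT. Mvd, the mevalonate diphosphate decarboxylase, was at 1.57 to 1.72 FPKM in FNcKO and 0.926 to 1.86 FPKM in WT. It had the highest log2 change of the early enzymes, 0.21 (SE 0.154, limma adjusted p = 0.547). Acat2, a cytosolic thiolase, was at 1.47 to 2.78 FPKM in FNcKO and 1.76 to 2.29 FPKM in WT. Its value is uncertain because Acat3, a near-identical neighbour, was at 13.6 to 14.6 FPKM in FNcKO and 13.2 to 16.1 FPKM in WT. Hmgcs1, Idi1, Fdps, Fdft1, Lss, Cyp51, Tm7sf2, Srebf1 and Scap share exon sequence with another annotated gene. For Fdps and Tm7sf2 the partner is on the same strand, where strand use could not separate the fragments. For the others it is on the opposite strand. Since the use of strand in counting is not given in the sources used here, fragments of those partners cannot be told apart either.

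**Figure D2:**
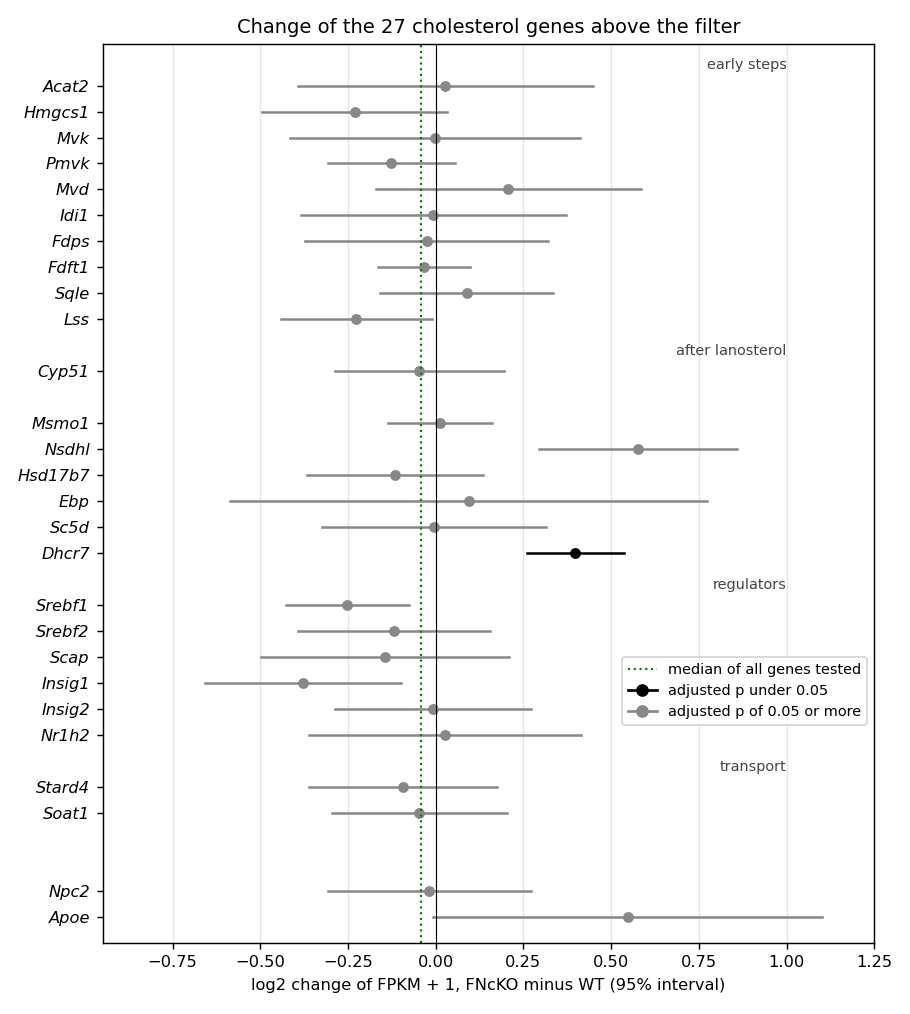
Log2 change of FPKM + 1, FNcKO minus WT, with its 95% limma interval for the 27 genes above the minimum; black marks an adjusted p under 0.05 and the dotted line is the median of all genes tested, -0.04. Dhcr7 (0.40) alone is black, while Nsdhl (0.58), Insig1 (-0.38), Srebf1 (-0.25) and Lss (-0.23) have intervals that do not reach 0 and did not pass.

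None of the 6 regulators passed, and their median log2 change was -0.13, beside -0.04 over all genes tested. Values of the groups did not overlap in 2 of the 6 (33.3%), beside 25.6% of all tested genes. In both, FNcKO lay below WT, as in 16.3% of all genes tested. Insig1, an anchor that holds SCAP in the endoplasmic reticulum when sterol is present, and itself an SREBP target (chr5:28071412-28078662), was at 13.9, 13.9 and 10.6 FPKM in FNcKO and at 16.3, 16.6 and 17.6 FPKM in WT. FNcKO replicate 3 was the lowest of all, and all WT values were above all FNcKO values. The means were 12.8 ± 1.91 FPKM in FNcKO and 16.8 ± 0.659 FPKM in WT (SD, n = 3 each), with a log2 change of -0.38 (SE 0.114, unadjusted p = 0.016, limma adjusted p = 0.175). Srebf1, the gene of SREBP-1, which acts mainly on fatty acid genes, was at 7.79, 8.68 and 8.58 FPKM in FNcKO and at 9.81, 9.76 and 10.8 FPKM in WT. There was a gap of about 1 FPKM between the groups, with means of 8.35 ± 0.487 FPKM in FNcKO and 10.1 ± 0.604 FPKM in WT (SD, n = 3 each). The log2 change was -0.25 (SE 0.0717, unadjusted p = 0.0128, limma adjusted p = 0.161).

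The other regulators overlapped between the genotypes. Srebf2, the gene of SREBP-2 and the main activator of the cholesterol enzymes, was at 3.17 to 4.15 FPKM in FNcKO and 3.88 to 4.72 FPKM in WT. Insig2, the second anchor, was at 4.45 to 5.13 FPKM in FNcKO and 4.06 to 5.58 FPKM in WT. Scap was at 1.401 to 2.07 FPKM in FNcKO and at 1.798 and 2.11 FPKM in WT. Nr1h2, the gene of LXR beta, was at 3.09 to 5.15 FPKM in FNcKO and 3.54 to 4.27 FPKM in WT. Insig1 over Insig2 was 2.72, 3.12 and 2.38 in FNcKO and 4.03, 2.97 and 3.87 in WT, and these ratios overlapped. Summed over the 5 regulators with all values, the level was 34.0, 36.3 and 31.0 FPKM in FNcKO and 37.7, 40.8 and 41.1 FPKM in WT. These sums did not overlap, but Insig1 and Srebf1 made up most of them, so the sums largely repeat the values of these genes.

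No gene of transport, esterification or export passed. Apoe, the apolipoprotein that carries cholesterol outside cells (chr7:19696244-19699188), was at 259, 163 and 181 FPKM in FNcKO and at 148, 105 and 156 FPKM in WT. The groups did not overlap, but the spread within FNcKO was wide, with FNcKO replicate 1 far above the others. The means were 201 ± 50.9 FPKM in FNcKO and 136 ± 27.3 FPKM in WT (SD, n = 3 each), a ratio of 1.47 and a log2 change of 0.55 (SE 0.226, limma adjusted p = 0.279). Without FNcKO replicate 1 the log2 change was 0.35. Markers of the ciliary body and iris summed to 56.7 to 78.6 FPKM in FNcKO and 42.0 to 51.8 FPKM in WT. The higher sum came from Optc, at 47.7, 31.4 and 49.5 FPKM in FNcKO and 19.8, 14.2 and 20.8 FPKM in WT. As a list these markers did not stand higher: 2 of the 6 tested, Optc and Zic1, had log2 changes above 0, and the median was -0.03. Apoe over Optc was 5.43, 5.18 and 3.65 in FNcKO and 7.4998, 7.42 and 7.47 in WT. Summed macrophage and leukocyte markers were 0.965 to 4.07 FPKM in FNcKO and 2.22 to 5.31 FPKM in WT, with 11 of 13 under 1 FPKM in every library. The part of these other cells in the Apoe values was not tested.

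The other transport genes were low. Npc2, which binds cholesterol in the lysosome, was at 2.81, 3.84 and 2.99 FPKM in FNcKO and at 3.50, 3.44 and 2.83 FPKM in WT, with a log2 change of -0.02 (SE 0.118, limma adjusted p = 0.954). Stard4, a sterol carrier of the cytosol, was at 0.799, 1.15 and 0.966 FPKM in FNcKO and at 1.06, 0.978 and 1.26 FPKM in WT, with a log2 change of -0.09 (SE 0.109, limma adjusted p = 0.703). Both overlapped between the genotypes. Soat1, which esterifies cholesterol for storage, was at 1.39 to 1.84 FPKM in FNcKO and 1.48 to 1.79 FPKM in WT. Abca1, an exporter and LXR target, was at 0.565 to 0.832 FPKM in FNcKO and 0.735 to 0.942 FPKM in WT. Abcg1, the other exporter, corresponded to about 16 to 27.9 fragments in FNcKO and 6 to 43.7 in WT, so that only a large difference could have been detected at this depth. The 5 transport genes other than Apoe summed to 6.59 ± 0.515 FPKM in FNcKO and 6.95 ± 0.205 FPKM in WT (SD, n = 3 each).

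Summed over the 16 synthesis enzymes with all values, the level was 64.2 ± 2.56 FPKM in FNcKO and 65.3 ± 2.76 FPKM in WT (SD, n = 3 each), a difference smaller than the spread. The 10 early enzymes summed to 47.8 ± 2.46 FPKM in FNcKO and 50.3 ± 2.19 FPKM in WT. The 6 late enzymes summed to 16.4 ± 0.341 FPKM in FNcKO and 15.0 ± 0.929 FPKM in WT, and these sums overlapped, since WT replicate 3 stood at 16.1 FPKM and FNcKO replicate 3 at 16.0 FPKM. The order of the 16 enzymes was nearly fixed across libraries. Fdps, Hmgcs1 and Fdft1 took the top 3 ranks in all libraries, Msmo1 and Cyp51 ranks 6 and 7, and Tm7sf2 rank 16. The pair between them changed places: Dhcr7 was 4 and Pmvk 5 in all FNcKO libraries, and Dhcr7 was 5 and Pmvk 4 in all WT libraries. These ranks follow from the values given above.

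Ratios within a library do not depend on how libraries are scaled to each other; they were chosen after the values had been seen. Dhcr7 was divided by each of the 15 other enzymes with all values. In 9 of the 15 every FNcKO ratio was above every WT ratio, and the ratio of means ran between 1.02, for Mvd, and 1.79, with a median of 1.41. Over all 120 pairs of the 16 enzymes, 22 had no overlap (18.3%), and 9 of these 22 are the Dhcr7 pairs themselves. All 15 Dhcr7 ratios reuse the same Dhcr7 values, which already stood apart, so they are not separate support. Lss came next with 8 of 15, Hmgcs1 had 5, and Acat2, Mvk and Tm7sf2 had 0. Dhcr7 over Insig1 was 0.417, 0.443 and 0.582 in FNcKO and 0.257, 0.271 and 0.246 in WT. Every FNcKO value of Dhcr7 was above every WT value, and every FNcKO value of Insig1 was below, so this ratio had to separate. By exact permutation (two-sided) its p was 0.1, a result fixed in advance that adds no support.

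**Figure D3:**
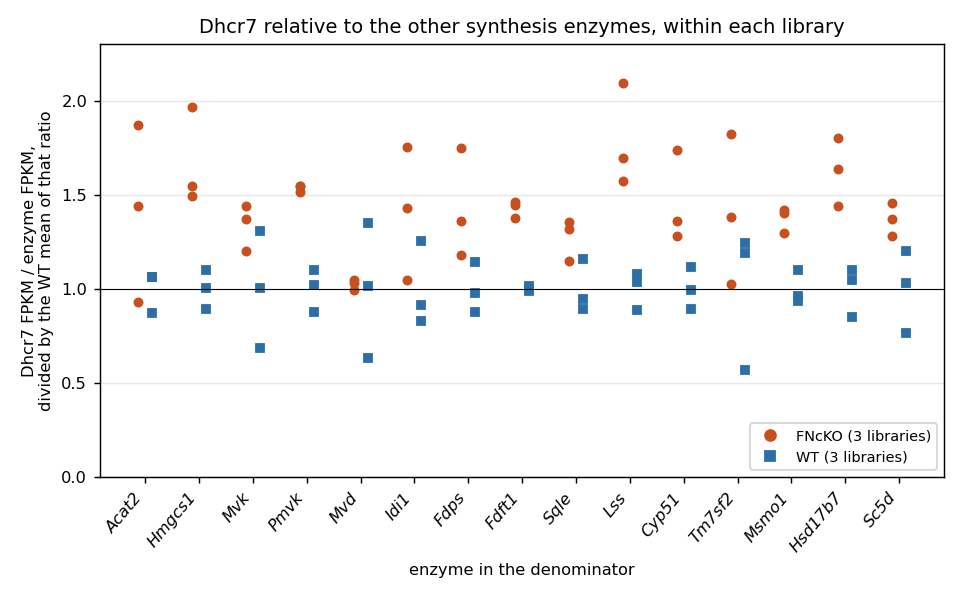
Dhcr7 FPKM over the FPKM of each other synthesis enzyme in the same library, divided by the WT mean of that ratio; circles are FNcKO and squares WT libraries, and 1 is the WT mean. The circles lie above all squares for 9 of 15 enzymes and overlap them for Acat2, Mvk, Mvd, Idi1, Sqle and Tm7sf2.

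Further genes of the pathway were read from 3 lists, with 69 rows in the table and 43 genes above the minimum. Of these 43, 0 passed as higher and 1 as lower, beside 1.89% of all genes in either direction, and their median log2 change was -0.07. Values of the groups did not overlap in 13 of the 43 (30.2%), beside 25.6% of all tested genes.

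Among 13 other regulators tested and 17 genes of uptake, transport and export tested, none passed with limma, with 1 of the 13 and 4 of the 17 at an unadjusted p under 0.05, beside 18.1% of all genes. Mylip, an LXR-induced ubiquitin ligase, had a log2 change of 0.32 (limma adjusted p = 0.198), and Pgrmc1, a haem-binding membrane protein, -0.27 (0.285). Vldlr, a lipoprotein receptor, had 0.26 (0.214), and Osbpl1a, an oxysterol-binding protein, -0.34 (0.239).

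Because the FPKM of the libraries can be scaled in several ways, the named genes were also read relative to the median of all genes. That median was -0.04 as deposited, -0.0045 after median-ratio scaling, 0.0051 after quantile normalization, 0.15 with equal FPKM totals and 0.29 with equal totals without crystallins. Crystallins took 28.9% to 37.1% of FPKM in FNcKO and 22.6% to 24.5% in WT. Less that median, Dhcr7 was at 0.43 to 0.46 under the 5 scalings and Nsdhl at 0.54 to 0.63. Insig1 was at -0.34 to -0.27 and Srebf1 at -0.22 to -0.16. Without taking off the median, the Insig1 and Srebf1 changes flipped to 0.02 and 0.14 with equal totals without crystallins. Of all genes passing, 45.3% were higher in FNcKO as deposited, 57.9% after median-ratio scaling, 60.4% after quantile normalization, 70.8% with equal totals and 76.7% with equal totals without crystallins.

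**Figure D4:**
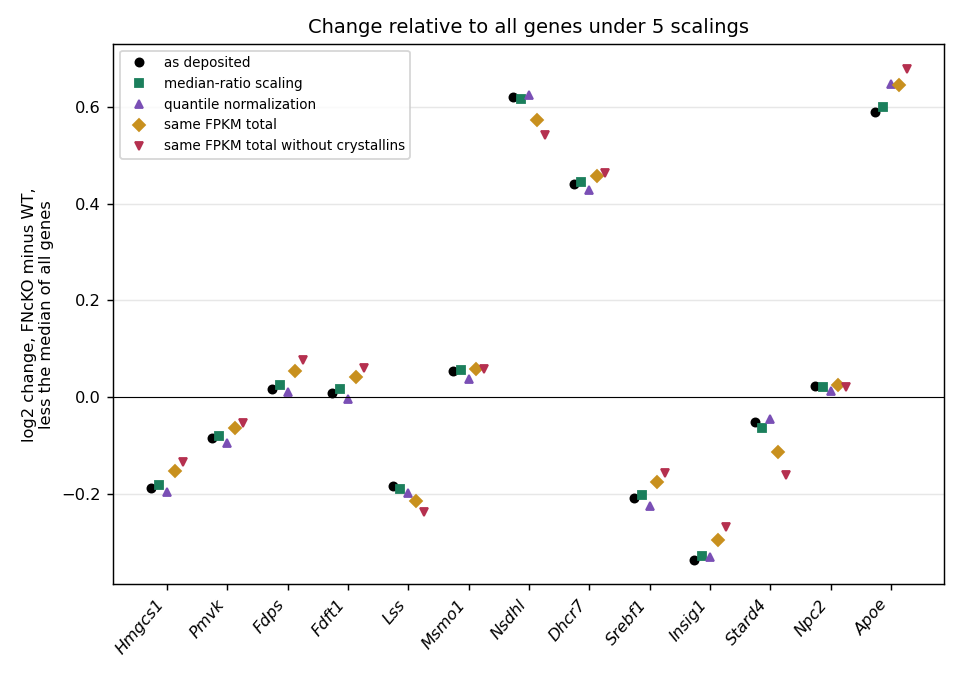
Log2 change, FNcKO minus WT, less the median of all genes, for the 13 named genes under 5 scalings of the libraries. Dhcr7 stays between 0.43 and 0.46, Nsdhl between 0.54 and 0.63, Insig1 between -0.34 and -0.27, and only Fdft1 crosses 0.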

How the data were processed

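RNA of lenses from 3 FNcKO and 3 WT libraries was analysed from 1 deposited table of FPKM values, computed by the authors. The submitters' processing notes list TopHat2 2.1.0, Cuffdiff 2.2.1, cutadapt 1.12 and FastQC, with GRCm38.p5 and mm10 as builds; per the labels' protocols, a strand-keeping total RNA kit made for tiny inputs was used. Not given in the sources used here are the annotation, strand use in counting, multimapping and scaling. Fragment numbers are not in the table, so depth was estimated from single-exon genes, with 59.7% to 64.5% of the values used within 0.15 of a whole number (30% by chance at a fixed depth). Start positions were raised by 1.

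log2(FPKM + 1) of the 10149 genes that averaged 1 FPKM or more was compared by limma 3.58.1 (R 4.3.3; two-sided, trended empirical Bayes, Benjamini-Hochberg over all genes, threshold 0.05); it was tested on simulated data. This scale understates changes of low genes; folds are ratios of mean FPKM. WT replicate 2 lacks 3578 rows, whose genes were fitted on 5 libraries. The members and lists were chosen with earlier results of these data known. Values in every library are given for members that passed, did not overlap, or were among the 2 smallest p or 2 most abundant of their subgroup; of the other lists, for genes that passed, or else the 2 smallest p are named. Acat3, Optc, Scd2 and Fasn are named outside this rule. A few genes named by it are not reported here. Promoter windows come from RefSeq; 27 symbols turned into dates could not be matched. Alternatives were the pseudocount, minimum, scaling, trend, weights, a replicate block and leaving out each library.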

Additional observations from a re-analysis of the deposited data

How the results depend on the processing

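The cause of the following changes was not tested. The 192 calls over all genes became 101 with no minimum, 89 with equal FPKM totals, 86 with equal totals without crystallins, and 37 to 117 without one library each. No label says that the replicate numbers pair the samples. Same-numbered FNcKO and WT libraries had correlations of their deviations of -0.03, -0.05 and -0.05, and a replicate block gave 14 calls. With 3 libraries a group, these correlations cannot tell whether the samples were paired. The 1 member called higher became 0 with no minimum, a minimum of 5 FPKM, equal totals with or without crystallins, the replicate block and without any one library (0 to 0). The 1 other pathway call became 0 with no minimum, a minimum of 5 FPKM, equal totals without crystallins and the replicate block, and was 0 to 1 without one library. The members' median log2 change was -0.0800 with a minimum of 5 FPKM, 0.0211 after median-ratio scaling, 0.018 after quantile normalization, 0.18 with equal totals, 0.31 with equal totals without crystallins, and -0.0642 to -0.0051 without one library.

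Directions that turned round were all of changes that had not passed. Equal totals without crystallins gave 0.35 for Fdft1, 0.37 for Fdps, 0.16 for Hmgcs1, 0.0231 for Insig1, 0.0544 for Lss, 0.31 for Npc2, 0.24 for Pmvk, 0.14 for Srebf1 and 0.13 for Stard4. Equal totals gave 0.19 for Fdft1, 0.21 for Fdps, 0.18 for Npc2, 0.0881 for Pmvk and 0.0385 for Stard4. Median-ratio scaling gave 0.0113 for Fdft1, 0.0211 for Fdps and 0.017 for Npc2. Quantile normalization gave 0.0148 for Fdps, 0.018 for Npc2 and 0.26 for Fn1, and library quality weights gave 0.0148 for Fdps. Without one library, Fdps ran between -0.12 and 0.11, Npc2 between -0.12 and 0.05004 and Msmo1 between -0.0252 and 0.0314. Fn1, and genes averaging under 5 FPKM, had no value under a minimum of 5 FPKM. With 3 libraries a group, strain bound to genotype and FPKM in place of counts, small changes of low genes such as Abcg1 and Tm7sf2 cannot be seen.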

Other observations

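Genes of fatty acid synthesis, most of them known targets of SREBP-1, were read from a list of 20 rows, of which 16 were above the minimum. With limma 0 of the 16 passed, and 6 had an unadjusted p under 0.05, beside 18.1% of all genes tested. In 9 of the 16 every FNcKO value was below every WT value, as in 16.3% of all genes tested. In 1 every FNcKO value was above, together 62.5%, beside 25.6% of all genes tested. The median log2 change was -0.16, with 12 of 16 below 0, beside -0.04 and 6115 of 10149 over all genes tested. The list was read only as deposited. With equal totals without crystallins the median of all genes was 0.29, and Scd1 moved to -0.29. Scd1, a fatty acid desaturase, was at 1.93, 1.54 and 1.47 FPKM in FNcKO and at 2.88, 2.70 and 3.30 FPKM in WT (log2 change -0.58, limma adjusted p = 0.054, and 0.049 to 0.273 over 16 alternatives). Lpin1, a phosphatidate phosphatase and transcriptional coactivator, was at 13.3, 11.3 and 10.7 FPKM in FNcKO and at 7.77, 8.08 and 8.22 FPKM in WT (log2 change 0.49, limma adjusted p = 0.0601, and 0.0402 to 0.219 over 17 alternatives). Groups of both genes stood apart. Scd2, the abundant desaturase of the list, was at 75.5 to 88.5 FPKM in FNcKO and 92.6 to 95.5 FPKM in WT (log2 change -0.23, limma adjusted p = 0.215). Fasn, the fatty acid synthase, was at 5.24 to 5.38 FPKM in FNcKO and 5.45 to 5.73 FPKM in WT (log2 change -0.06, limma adjusted p = 0.637). Srebf1 itself is described above, and no relation between it and these genes was tested.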
